A study of Mus musculus with 4 samples.

Results

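G2 and M phase genes are the genes whose products a cell needs to enter mitosis, separate its chromosomes and divide, and their transcripts rise late in the cell cycle and fall away after division. 38 such genes were followed by symbol in single cells of mouse bone marrow, out of 32227 gene rows counted (0.118%), and all 38 had UMIs (unique molecular identifiers, a count of captured transcripts) in the kept cells. The cells came from wild-type mice injected with E0771, a mouse breast cancer line, 3 days before surgery. One group had ligation of the femoral artery, which lowers blood flow to the leg, and the other had sham surgery, so both groups carried the tumour line. Marrow was taken on day 9 after surgery and sorted for lineage-negative, cKit-positive progenitors with or without Sca1. PIPseq, a droplet method that needs no microfluidic chip, was used in 2 libraries, and hashtags (oligonucleotide labels) marked 8 replicates, 4 of each group. The labels give neither the age of the mice nor whether a replicate was 1 mouse or a pool, so every p-value measures the spread between hashtag replicates.

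The treatment label names one library as ligation and the other as sham, whereas the hashtag names place 2 sham and 2 surgery replicates in each. Groups were taken from the hashtag names, and the libraries are called batch 1 and batch 2. In batch 2 the hashtag rows list surgery first, unlike the label. Every statement on surgery rests on those names, and wrong names in batch 2 would exchange its groups. After filtering, 26824 of 32273 barcodes remained, 14597 in batch 1 and 12227 in batch 2. A replicate held between 1877 and 5848 cells. Median UMIs per cell lay between 5860 and 7244 in batch 1 and between 10291 and 12392 in batch 2. The libraries shared 5 barcodes, of which 4 were among the kept cells. Cell classes came from clustering without cell-cycle genes, and their names stand for cells like that type. 14 classes were named, and 2 larger clusters without a name are called by their leading genes: S100a8 and Wfdc21 (cluster 0), and Zg16 and Gm15915 (cluster 17). The class that scored highest for mature neutrophil markers was led by Ltf and Ngp and is called the Ltf- and Ngp-led neutrophil class. All 11 of those markers were more than 2-fold above other cells. Elane was at 4119 CPM (UMIs scaled to a fixed total per replicate) there and 7218 CPM in other cells. Mmp8 was at 5.50 CPM there and 1.99 CPM in other cells. Mature B cells (1082) and T, NK or innate lymphoid cells (534), which a lineage-negative gate should leave out, were also found.

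Entry into mitosis is switched on by the kinase Cdk1 with its B-type cyclins, after the phosphatase Cdc25c removes an inhibitory phosphate, and cyclin A, made earlier, acts from S phase onward. Polo-like and Aurora kinases then build the spindle, the kinetochore ties chromosomes to it, and the checkpoint kinases Bub1 and Ttk hold the cell until every chromosome is attached. Cdc20 and Ube2c then let the anaphase-promoting complex destroy the cyclins, and Ect2, Racgap1, Kif23 and anillin pinch the cell in 2. In marrow, most committed progenitors divide quickly while long-term stem cells are known to be mostly quiescent, so these transcripts are widely used to count dividing cells.

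Many of these genes are known to be held off in resting cells by the DREAM complex at a promoter element called the CHR and to be switched on through CCAAT boxes, so both motifs were looked for in RefSeq promoters (build GRCm38.p6, 250 bases before to 50 after the start). Promoters were found for 31 of the 38 members, with 32 entries. TTTGAA, on either strand, lay in 25 of the 32 entries and in 17.9% of 32851 promoters of the same length. With TTCGAA, a second form that was also searched, the figures were 26 of 32 and 19.2%. CCAAT, on either strand, lay in 24 of 32 entries and in 37.4% of all promoters. Both TTTGAA and CCAAT were present in 21 of 32 entries and in 6.95% of all promoters. The last 120 bases before the RefSeq start are shown for 4 members on whose levels or cells the results below turn. Capitals mark TTTGAA or its reverse complement, and CCAAT or its reverse complement. Top2a, Ckap2l and Ect2 hold both motifs within these bases, whereas Ccnb2 holds CCAAT there and TTTGAA elsewhere in the searched window. A match is a description of letters and shows no binding.
Top2a: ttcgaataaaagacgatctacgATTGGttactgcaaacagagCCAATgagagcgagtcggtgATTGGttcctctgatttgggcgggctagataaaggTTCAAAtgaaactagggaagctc
Ckap2l: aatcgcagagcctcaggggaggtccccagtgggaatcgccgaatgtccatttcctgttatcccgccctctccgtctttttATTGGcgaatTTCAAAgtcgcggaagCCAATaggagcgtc
Ect2: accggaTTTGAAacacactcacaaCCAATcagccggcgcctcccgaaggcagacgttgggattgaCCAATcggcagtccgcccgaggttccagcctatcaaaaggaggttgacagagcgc
Ccnb2: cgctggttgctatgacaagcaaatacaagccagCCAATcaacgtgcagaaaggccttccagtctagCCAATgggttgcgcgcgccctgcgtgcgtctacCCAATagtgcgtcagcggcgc
These stretches, all on the minus strand, lie at chr11:99024190-99024309 for Top2a, chr2:129297213-129297332 for Ckap2l, chr3:27153879-27153998 for Ect2 (1 of its 2 entries) and chr9:70421555-70421674 for Ccnb2. None of them overlaps an exon of the GENCODE M21 annotation.

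Cells were called cycling when at least 3 of the 38 members had a UMI after every cell was thinned to 2000 UMIs, which removes the effect of depth on the count but drops shallower cells (10.8% of all). By this measure 56.0% ± 3.28 (SD, n = 8 replicates) of all cells were cycling, with replicates from 51.3% through a median of 56.2% to 60.6%. Without thinning the mean was 77.9%. The measure is a range and not a cell type: 23.5% of thinned cells had 2 or 3 members with a UMI. For comparison, the share was 19.6% ± 6.88 in mature B cells (median 1893 UMIs, 56.2% of cells left out by thinning) and 15.9% ± 5.14 in T, NK or innate lymphoid cells (median 3220 UMIs). Whether T, NK or innate lymphoid cells are a pure background was not tested. Nor was this tested for mature B cells, of which 86 were called cycling. Among mature B cells with at least 3 other members 79.1% had a Top2a UMI (mean of the 3 replicates with enough cells). Top2a is on the list that picked these cells, so the value does not show what they are. One mature B cell cluster, led by Fcer2a and Ighd, had 5.56% cycling cells among its 90 cells with enough UMIs. Before thinning, cycling cells had 1.52 times the median UMIs of the rest, and more in 8 of 8 replicates; the part of cell size in the share was not tested.

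Erythroid progenitors, which make red cells, had the highest cycling share of the classes, at 96.9% ± 1.29 (n = 8), and the lowest replicate stood at 94.7%. The Ltf- and Ngp-led neutrophil class followed at 79.0% ± 5.86, but 25.3% of its cells were too shallow to count and 69.7% of them came from batch 1. Monocyte progenitors (66.8% ± 2.97), plasmacytoid-like progenitors (64.3% ± 3.93), eosinophil progenitors (64.0% ± 12.4), dendritic cell progenitors (60.8% ± 12.8), pro-B and pre-B cells (58.2% ± 5.84) and neutrophil-granulocyte progenitors (58.1% ± 2.93) followed. Neighbours in this order overlapped over replicates, but its ends did not: the lowest monocyte replicate (62.8%) lay above the highest neutrophil-granulocyte replicate (61.7%). Thinning left out 45.5% of the dendritic and 42.6% of the eosinophil cells. Megakaryocyte progenitors, which make platelets, stood at 51.3% ± 3.28, and the cluster led by S100a8 and Wfdc21 at 42.0% ± 3.46. Haematopoietic stem cells with early multipotent progenitors (the HSC class) had 40.4% ± 5.67, basophil-mast progenitors 37.8% ± 3.33, the cluster led by Zg16 and Gm15915 33.1% ± 7.77 and lymphoid-primed progenitors 27.2% ± 6.97. The lymphoid-primed replicates ran from 12.1% to 33.3% and overlapped those of mature B cells (9.80% to 30.6%) and of T, NK or innate lymphoid cells (8.0% to 22.4%).

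**Figure D1:**
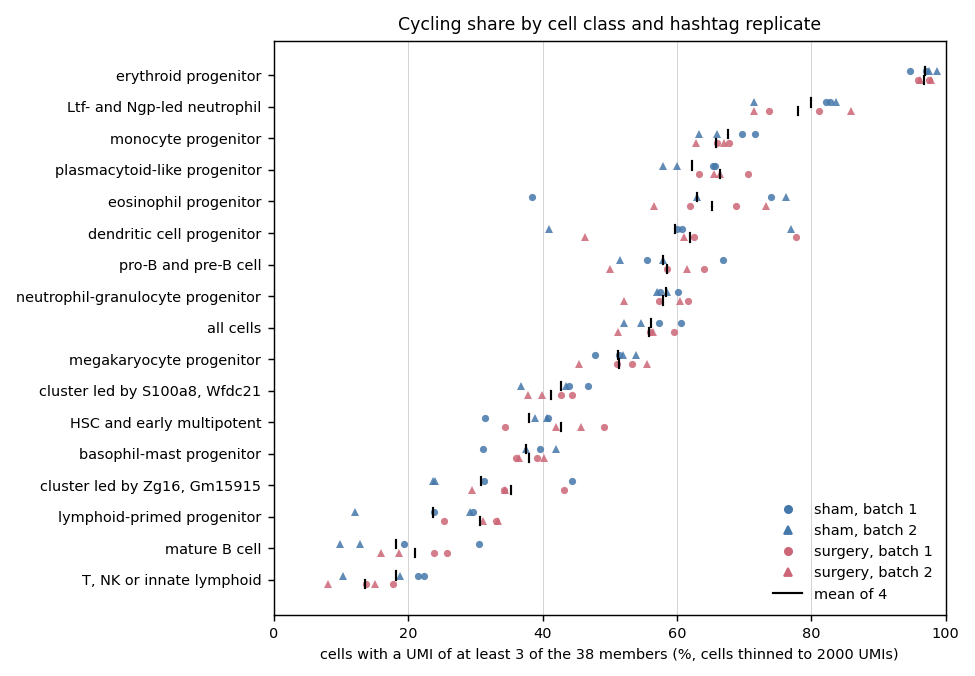
Percentage of cells in which 3 or more of the 38 members had a UMI (x axis, %, cells thinned to 2000 UMIs) for each cell class (y axis); each point is a hashtag replicate, coloured by group and shaped by batch, and black bars are means of 4. Erythroid progenitors stand at the top near 96.9%, mature B and T, NK or innate lymphoid cells at the bottom, and sham and surgery points overlap in every class.

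The order depended on depth and on how cells were grouped. Without thinning, the HSC class stood at 73.3%, neutrophil-granulocyte progenitors at 96.6% and mature B cells at 13.7%. Among the 10 classes present under every setting, the erythroid class was always first or second, and mature B and T, NK or innate lymphoid cells held places 8 to 10, whereas the HSC class moved between places 4 and 9. Clusters parted along the cycle although cell-cycle genes had been left out. Within the HSC class, one cluster of 1512 cells had 19.0% cycling cells and the other, of 573 cells, 94.9%. Pro-B and pre-B cells ranged from 13.5% in one cluster (1150 cells) to 98.6% in another (333 cells), and the monocyte clusters from 44.6% to 90.2%. A class mean therefore depends on which of its clusters took its name.

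Transcripts of the members were also summed per class and replicate as CPM, a scale on which levels of different genes cannot be compared because it is not per length. Pro-B and pre-B cells, which expand between rearrangements of their antibody genes, had the highest mean of 28 of the 38 members and levels above those of all cells for all 38. Erythroid progenitors were above all cells for 36 members and highest for 4: the Aurora kinase gene Aurka, the survivin gene Birc5, the centromeric histone gene Cenpa and the cytokinesis kinesin gene Kif20a. The lowest mean fell in the cluster led by S100a8 and Wfdc21 for 21 members and in T, NK or innate lymphoid cells for 8. The HSC class was above all cells for 5 members and the lymphoid-primed class for 1. The counts for pro-B and pre-B cells (38) and erythroid cells (36) were the same under the 12 other settings tried, but that of the HSC class ranged from 0 to 17. Members highest in pro-B and pre-B cells ranged from 20 to 33. These comparisons between classes are descriptions, since the same cells made the classes.

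Among the genes of the cyclin-dependent kinase switch, Cdk1 ran from 182 through a median of 209 to 243 CPM over the 8 pro-B and pre-B replicates and from 181 through 202 to 227 CPM in erythroid progenitors. The HSC class held Cdk1 at 86.5 to 124 CPM, so its replicates lay below those of both classes. Cyclin B1 (Ccnb1) had a median of 139 CPM in pro-B and pre-B cells, 127 CPM in erythroid progenitors and 44.6 CPM in the HSC class. In the cluster led by S100a8 and Wfdc21 its median was 20.6 CPM.

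Of the mitotic kinases, Plk1, which drives centrosome maturation and mitotic entry, had medians of 75.6 CPM in pro-B and pre-B cells, 70.0 CPM in erythroid progenitors and 19.2 CPM in the HSC class. Aurka was the kinase with its highest mean in erythroid progenitors, 78.8 ± 9.13 CPM, but pro-B and pre-B cells at 74.0 ± 9.69 CPM overlapped it. Ube2c, the ubiquitin-conjugating enzyme of the anaphase-promoting complex, ran from 341 through 482 to 557 CPM in pro-B and pre-B cells and had a median of 111 CPM in the HSC class.

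Top2a, the topoisomerase that untangles sister chromatids, ran from 826 through 1011 to 1199 CPM in pro-B and pre-B cells, above the 454 to 669 CPM of erythroid progenitors with no overlap. For Mki67, which coats mitotic chromosomes, the mean was 497 ± 38.1 CPM in pro-B and pre-B cells and 416 ± 39.5 CPM in erythroid progenitors. Of the kinetochore genes, Cenpf stood out in pro-B and pre-B cells at 338 ± 59.9 CPM, against 124 ± 12.6 CPM in erythroid progenitors and 75.6 ± 11.5 CPM in all cells. Cenpa and Birc5 had the opposite order, with 371 ± 21.4 and 368 ± 24.8 CPM in erythroid progenitors and 353 ± 38.6 and 320 ± 24.6 CPM in pro-B and pre-B cells. For both genes the replicates of these classes overlapped.

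**Figure D2:**
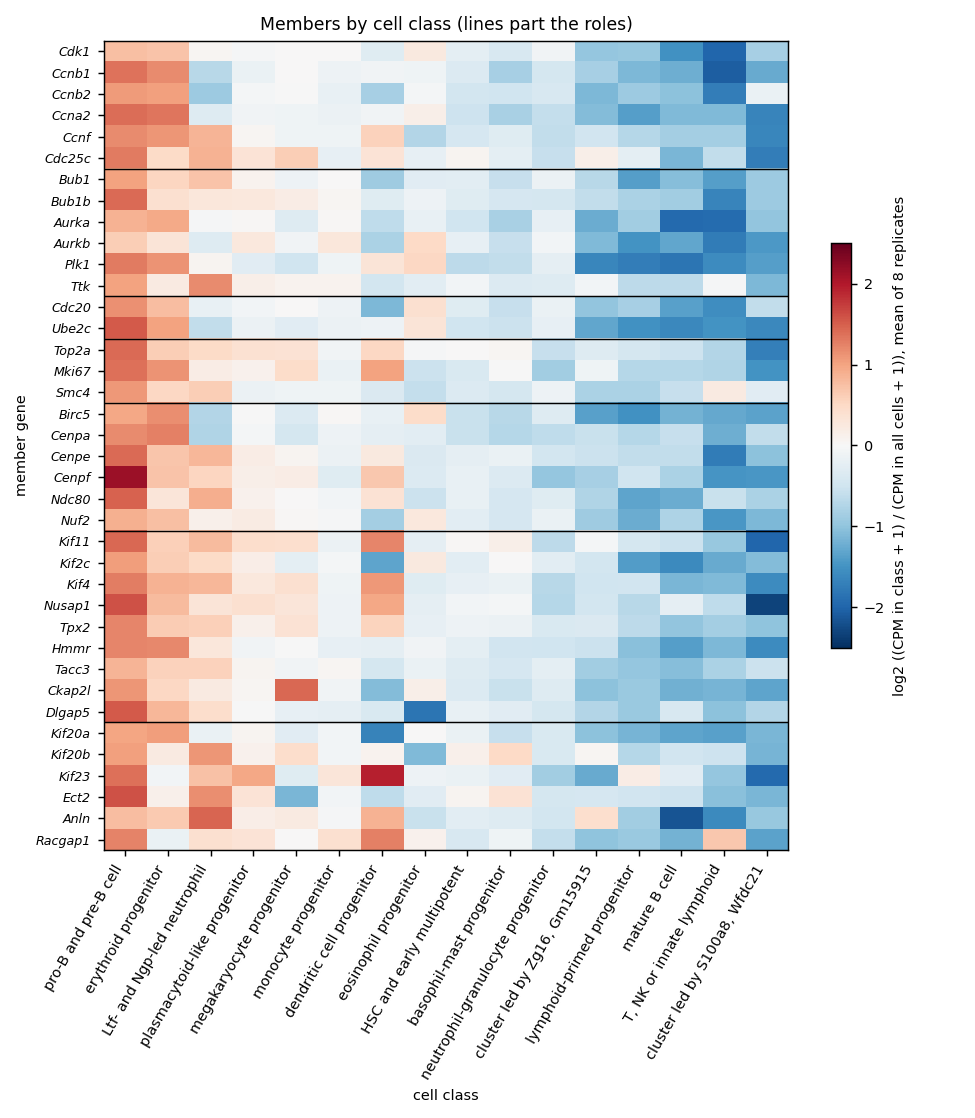
Level of each member (rows, parted by role) in each cell class (columns) as log2 of class CPM over the CPM of all cells, 1 added to both, mean of 8 replicates. Red is above and blue below all cells: the pro-B and pre-B column is red for all 38 members, and single squares that break with their column include Ckap2l and Ect2 in megakaryocyte progenitors.

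A few members departed from the rest of the list within a class. The departure of a member was its log2 ratio to all cells minus the median of the 38 members in the same class and replicate; the pairs below were chosen after their values were seen. Ckap2l, a spindle and centrosome protein gene, was the member that broke most clearly upward in megakaryocyte progenitors. Its level there ran from 106 through 125 to 164 CPM, above all cells (39.5 to 53.4 CPM) with no overlap. Its departure was 1.43 ± 0.15, on the same side in 8 of 8 replicates, and lay between 1.2035 and 1.84 under the other settings. Among megakaryocyte cells with at least 3 other members, 25.5% ± 4.91 had a Ckap2l UMI, against 22.9% ± 3.97 of pro-B and pre-B cells. Among the remaining megakaryocyte cells the share was 6.63% ± 2.77, against 1.06% ± 0.53 in the same kind of pro-B and pre-B cell. Ckap2l lies at chr2:129268210-129297212 (minus strand, GRCm38) and overlaps Gm14024 on the other strand. The sources used here do not say whether counting used strand, so reads of the pair cannot be told apart.

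Ect2, the exchange factor that switches on RhoA at the division plane, went the other way in the same cells. Its level in megakaryocyte progenitors ran from 13.9 through 20.6 to 25.9 CPM, below the 39.8 to 48.8 CPM of all cells with no overlap. The departure was -1.14 ± 0.36, below the class median in 8 of 8 replicates, with values between -2.76 and -0.63 under the other settings. Among megakaryocyte cells with at least 3 other members, 7.54% ± 2.22 had an Ect2 UMI, against 30.2% ± 2.80 in pro-B and pre-B cells and 9.60% ± 1.69 in erythroid progenitors. Megakaryocytes are known to become polyploid by dividing their nucleus without completing cytokinesis, which is background and not a result of these counts. Racgap1, a partner of Ect2 in the central spindle, showed no such departure there (0.00 ± 0.21) and Kif23, the kinesin that binds Racgap1, had -0.31 ± 0.23.

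**Figure D3:**
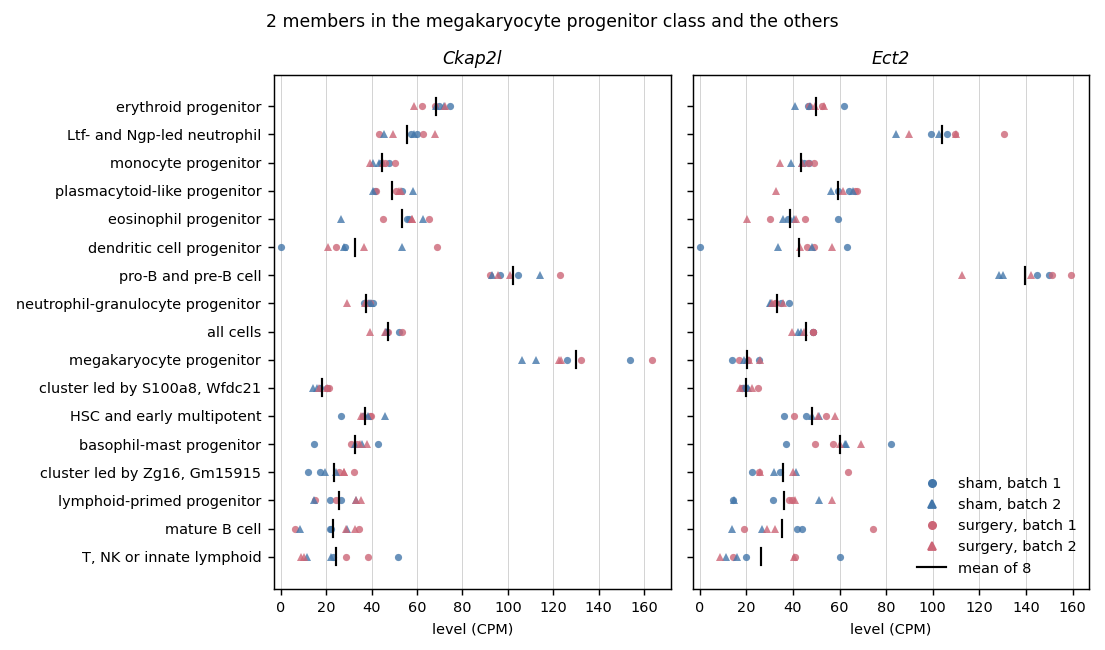
Level in CPM (x axis) of Ckap2l and Ect2 in each cell class (y axis); points are the 8 replicates, coloured by group and shaped by batch, and black bars are means of 8. In megakaryocyte progenitors Ckap2l lies at 106 to 164 CPM, above most classes, while Ect2 lies at 13.9 to 25.9 CPM, near the lowest class.

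Kif23 and Racgap1, which together form centralspindlin, departed upward in dendritic cell progenitors. Kif23 ran from 129 through 242 to 367 CPM there, a departure of 1.74 ± 0.48 in 8 of 8 replicates that rested on 235 UMIs. Racgap1 had a departure of 1.06 ± 0.52. When called doublets were kept, the departures were 1.08 for Kif23 and 0.35 for Racgap1. In erythroid progenitors both departed downward, Kif23 by -0.77 ± 0.09 and Racgap1 by -0.86 ± 0.09, on the same side in 8 of 8 replicates. Racgap1 and Smc4, a condensin subunit, stayed high in T, NK or innate lymphoid cells, at 113 ± 22.8 and 480 ± 107 CPM, with departures of 1.70 ± 0.69 and 1.25 ± 0.65. These levels were not confined to cycling cells: among cells with fewer than 3 other members, 12.4% had a Racgap1 UMI and 46.9% an Smc4 UMI. The Ltf- and Ngp-led class had the highest Kif20b and Anln, but under 8 of 10 other settings each departure moved by more than its spread (Kif20b from -0.29 to 0.74, Anln from -0.13 to 1.14). The class named by mature neutrophil markers held largely other cells under most of these settings. With cell-cycle genes it held 1586 cells, of which 82 were Ltf- and Ngp-led.

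The members also differed in how often the cells that held them had S phase genes. Among cells with at least 3 other members, the share with at least 3 genes of a 32-gene S phase list (replication enzymes and origin factors) was compared between cells with and without a UMI of each member. Top2a was the 1 member with a higher share in every replicate: 86.0% ± 2.05 of cells with it had the S phase genes, higher than cells without it in 8 of 8 replicates by 3.97 ± 2.19 percentage points. At the other end stood the genes of mitotic exit. With Cdc20 the share was 71.5% ± 4.93, which is 16.4 ± 4.11 points lower than without it (-16.4) in 8 of 8 replicates, and with Ube2c it was 73.0% ± 3.90, a difference of -16.0 ± 3.15. The centromeric histone gene Cenpa (-12.7 ± 2.08), the B-type cyclins Ccnb2 (-11.7 ± 2.97) and Ccnb1 (-11.2 ± 2.42), and Cenpf (-11.3 ± 2.86) followed, each in 8 of 8 replicates. Ccna2, the earlier cyclin, lay at -1.75 ± 2.41, below 0 in 6 of 8 replicates. Aurkb, Ttk and Mki67 had means near 0 with replicates on both sides. Even at the far end most cells had S phase genes, so the measure orders the members and does not part S phase from mitosis. Cells of all classes were pooled within each replicate, and the classes differed. Of pro-B and pre-B cells 58.2% were cycling, and 45.5% were cycling and had at least 3 S phase genes. In erythroid progenitors the figures were 96.9% and 95.7%. The part of class makeup in the order of members was not tested.

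**Figure D4:**
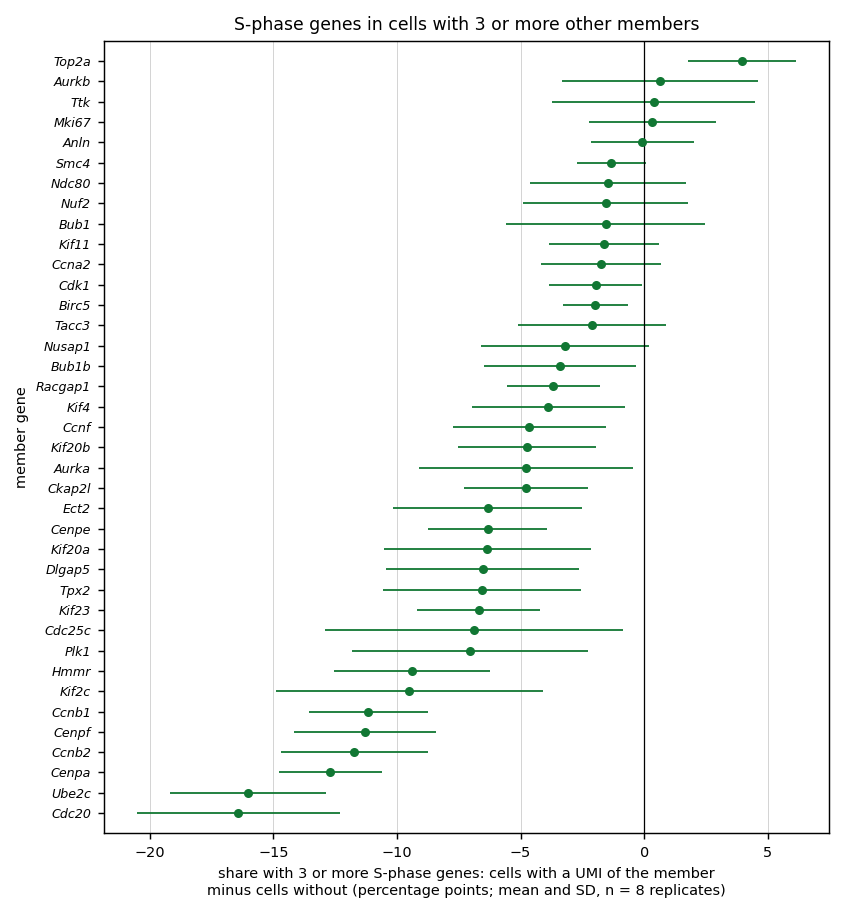
Difference in the share of cells with at least 3 S phase genes between cells with and without a UMI of each member (x axis, percentage points; mean and SD of 8 replicates), among cells with at least 3 other members; members are on the y axis. Top2a lies furthest right at 3.97 and Ube2c and Cdc20 furthest left at -16.0 and -16.4.

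Members also marked cycling cells to different degrees. Hmmr, a spindle assembly protein gene, had a UMI in 15.6% of cells with at least 3 other members and 1.08% of the rest, a ratio of 14.5. Cdc25c, Plk1 and Kif2c had ratios of 12.1, 11.97 and 11.6. At the low end Smc4 was found in 61.8% and 35.1%, a ratio of 1.76, and Top2a in 58.6% and 17.2%, a ratio of 3.40. Detection was sparse for some of these markers, with a Cdc25c UMI in 4.40% of the cells with at least 3 other members.

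Surgery was compared with sham by edgeR's quasi-likelihood test on summed counts with a batch term, over all genes, in all cells together and in 16 classes. No member passed an adjusted p of 0.05 in any of the 17 comparisons (564 tests of members). At an unadjusted p under 0.05, 44 of these tests (7.80%) passed, against 4.63% of 150175 tests of all genes. DESeq2 also called 0 members, with 21 (3.72%) at an unadjusted p under 0.05, against 1.71% of all genes. Few genes of any kind were called: 0.0416% of those tested in all cells, 0.0927% in the HSC class, 0.751% in lymphoid-primed progenitors, 0.0612% in monocyte progenitors, 0.0745% in neutrophil-granulocyte progenitors and 0.0312% in pro-B and pre-B cells. The shares were 0.0387% in the cluster led by S100a8 and Wfdc21, 0.0147% in the Ltf- and Ngp-led class, 0.0102% in plasmacytoid-like progenitors and 0.0% in the other 8 comparisons. In simulated counts with 100 genes changed 1.5-fold, the same test recovered 62 in all cells and 71 in the HSC class. Each run also held 100 genes changed 2-fold, of which 76 and 90 were recovered, and made 8 and 17 false calls.

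In all cells, 6 of 38 members were higher after surgery, with a median log2 difference of -0.04 against -0.0022 over all genes. The members ran from Bub1b, a checkpoint kinase gene (0.06 ± 0.06 SE), to Ccna2 (-0.12 ± 0.07), and the lowest adjusted p of any member was 0.9999 in edgeR's test. Mki67 was 192, 223, 197 and 169 CPM in the sham and 208, 207, 149 and 179 CPM in the surgery replicates, in order of batch. Those groups overlapped throughout, as did all 38 members in all cells, where 1.71% of all genes did not overlap in one direction or the other. In the first replicate of surgery in batch 2, Ccnb1 (45.4 CPM), Top2a (288 CPM) and Plk1 (22.5 CPM) were at their lowest, and the cycling share of that replicate was also the lowest. Its makeup stood apart too: the cluster led by S100a8 and Wfdc21 held 12.5% of its cells (5.11% to 7.87% in the others) and neutrophil-granulocyte progenitors 18.4% (10.3% to 13.9%). Monocyte progenitors held 15.8% (18.2% to 23.6%). The part of makeup in these levels was not tested.

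In the HSC class, 30 of 38 members were higher after surgery with a median log2 difference of 0.07, against -0.0013 over all genes, and 3 (7.89%) passed at an unadjusted p under 0.05, against 3.94% of all genes. Cenpf, a kinetochore and nuclear-matrix protein gene, had the largest difference. It was 48.5, 63.6, 48.0 and 69.6 CPM in sham and 84.8, 83.3, 69.2 and 67.4 CPM in surgery replicates, batch 1 first. The groups overlapped only at the top of sham, and the log2 difference was 0.35 ± 0.11 SE (adjusted p 0.872 in edgeR's test), 0.50 in batch 1 and 0.22 in batch 2. Hmmr (0.23 ± 0.12) and Tpx2 (0.23 ± 0.09), both of spindle assembly, were next. The lowest were Ttk (-0.10 ± 0.13), Kif20a (-0.07 ± 0.14) and Plk1 (-0.07 ± 0.16). Cdk1 was 86.5, 96.0, 110 and 105 CPM in sham and 116, 94.2, 124 and 115 CPM in surgery, a log2 difference of 0.16 ± 0.08. The log2 differences were 0.11 ± 0.08 for Mki67, 0.06 ± 0.06 for Top2a, 0.03 ± 0.12 for Ccnb1 and 0.23 ± 0.10 for Aurkb, and none passed edgeR's test. For Aurkb and Tpx2 every surgery replicate lay above every sham replicate, though for Aurkb the groups met at 56.7 CPM, and 0.927% of all genes tested in the class did the same.

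The direction in the HSC class reversed when each cell was instead assigned by its own marker UMIs: 4 of 38 members were higher and the median was -0.22. Under the other clusterings the median stayed above 0. It ran from 0.0258 with unit-variance scaling (20 of 38 higher) to 0.15 with cell-cycle genes (28 of 35 higher). The cycling share of the class was 31.5, 40.8, 38.8 and 40.7% in sham and 49.1, 34.3, 45.7 and 42.0% in surgery replicates. The means were 37.9% and 42.8%, which came to 5.57 points within batch 1 and 4.06 within batch 2. The groups overlapped because one surgery replicate of batch 1 lay at 34.3%. Over the other settings and replicates left out the difference ranged from -0.16 to 8.5035 points.

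Lymphoid-primed progenitors had 33 members tested, of which 28 were higher after surgery with a median log2 difference of 0.19, against 0.0024 over all genes. At an unadjusted p under 0.05 in edgeR's test, 2 members (6.06%) passed, a smaller share than the 10.6% of all genes. Cdc25c (0.78 ± 0.47), Aurkb (0.74 ± 0.31) and Ccnb1 (0.60 ± 0.28) were highest, and Kif23 (-0.33 ± 0.20), Ndc80 (-0.11 ± 0.40) and Racgap1 (-0.09 ± 0.26) lowest. The lowest adjusted p in edgeR's test was 0.374, for Aurkb. Aurkb, the kinase of the chromosomal passenger complex, was 7.19, 17.7, 9.85 and 36.7 CPM in sham and 29.9, 22.9, 51.4 and 37.2 CPM in surgery. The groups overlapped through the second sham replicate of batch 2. Of the other members given whatever their values, here and in the HSC class, Cdk1 differed by 0.33 ± 0.19 on the log2 scale. Top2a differed by 0.20 ± 0.14 and Mki67 by 0.03 ± 0.17, and Plk1 was too low to be tested. The sham replicates of batch 2 lay far apart: Top2a was 176 CPM in the first and 341 CPM in the second, and the cycling share was 12.1% and 29.2%. Without the first, 17 of 36 members were higher with a median of -0.02. Without the second, 31 of 33 were higher with a median of 0.47, and edgeR's test called Ccnb2 (1.10), Kif11 (0.89) and Top2a (0.47). That fit called 63 genes of any kind higher and 46 lower, against 37 and 22 with every replicate. The cycling share was 29.6, 23.8, 12.1 and 29.2% in sham and 25.3, 33.0, 33.3 and 31.2% in surgery, or 2.46 points more with surgery within batch 1 and 11.6 within batch 2.

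**Figure D5:**
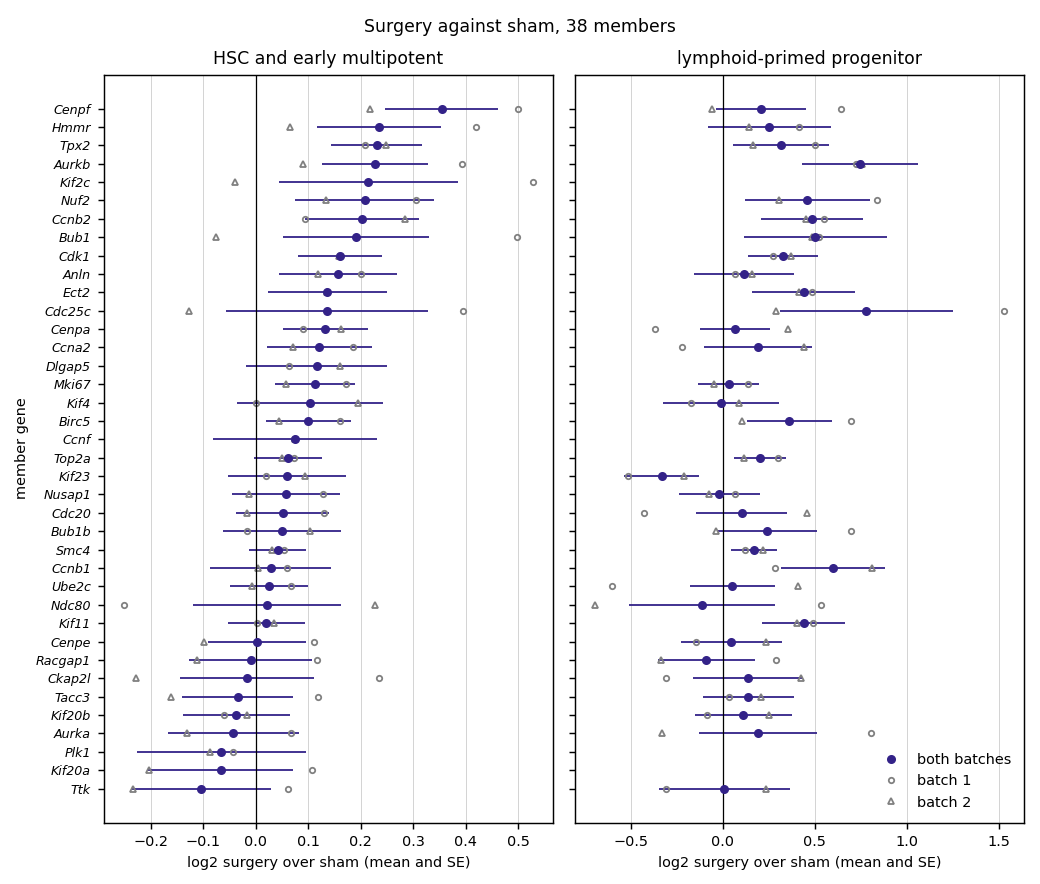
log2 difference of each member (y axis) from sham to surgery in the HSC class (left) and in lymphoid-primed progenitors (right); filled points with bars are the estimate and SE over both batches, open circles and triangles the values within batch 1 and batch 2. Most points lie right of 0 in both panels (30 of 38 and 28 of 33), no member passed the test, and members too low to be tested have no point.

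Elsewhere the cluster led by Zg16 and Gm15915 had 31 of 36 tested members higher, a median of 0.26, and 15 (41.7%) at an unadjusted p under 0.05, against 5.28% of all genes. None was called. The cycling share of this cluster was higher with surgery by 0.82 points within batch 1 and 8.13 within batch 2. Having no name, the cluster was not followed in the other clusterings, so its dependence on the grouping of cells was not tested. Every surgery replicate lay above every sham replicate for 4 of its members (Ccnb2, Ccna2, Cenpa and Ckap2l), as for 1.3% of all genes tested there. The same held for Cdk1 and Bub1b in megakaryocyte progenitors (1.34% of all genes) and for Bub1b and Hmmr in pro-B and pre-B cells (1.08%). It also held for Cdc20 in dendritic cell progenitors and Nusap1 in mature B cells. In the other direction, every surgery replicate lay below every sham replicate for Cenpe in T, NK or innate lymphoid cells. So did those for Bub1 in the cluster led by S100a8 and Wfdc21. Each was 1 of 38 members in its class. The share of all genes is not given for these classes, so none of these single members is read as a difference. T, NK or innate lymphoid cells had 1 of 12 higher, with a median of -0.67 on few UMIs. Of these 12 members, 4 (33.3%) passed at an unadjusted p under 0.05 in edgeR's test, against 4.86% of all genes, and none was called. The difference between batches was tested as an interaction, and edgeR called 0 of 564 member tests (34, or 6.03%, at an unadjusted p under 0.05, against 5.65% of all genes). Over the 17 comparisons edgeR called this interaction for 0.0553% of all genes. DESeq2 called 0 members, with 5 (0.887%) at an unadjusted p under 0.05 against 1.43% of all genes.

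Genes around the members in the same pathways gave calls in lymphoid-primed progenitors alone among the 17 comparisons. There, 30 of 31 tested S phase genes were higher with a median of 0.37, and 2 were called. Tyms, thymidylate synthase, was 35.9, 34.0, 23.0 and 40.0 CPM in sham and 59.9, 79.5, 56.8 and 56.4 CPM in surgery (0.91 ± 0.22 SE, adjusted p 0.0450 in edgeR's test). The groups did not overlap. Uhrf1, which recruits the maintenance DNA methyltransferase, was 122, 93.3, 72.2 and 86.6 CPM in sham and 122, 135, 162 and 130 CPM in surgery. Those groups met in batch 1, and Uhrf1 rose by 0.64 ± 0.15 (adjusted p 0.0378 in edgeR's test). Of 13 quiescence and cell-cycle brake genes, 9 were lower and 2 were called: the antiproliferative gene Btg2 (-0.59 ± 0.12, adjusted p 0.00946 in edgeR's test) and the immediate early gene Egr1 (-0.68 ± 0.15, adjusted p 0.0159). Btg2 was 359, 339, 364 and 381 CPM in sham and 242, 272, 168 and 251 CPM in surgery, with no overlap. These calls were not stable: Tyms was called in 2 of 20 and Uhrf1 in 5 of 21 other fits, and Btg2 and Egr1 in 15 of 22 each, although all 4 kept their sign. With 1 replicate left out, Tyms was called in 1 of 8 fits (adjusted p 0.0121 to 0.230), Uhrf1 in 2 (0.0210 to 0.193), Egr1 in 5 (0.00203 to 0.198) and Btg2 in 7 (0.00724 to 0.0763).

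In the same class 20 of 21 spindle checkpoint and kinetochore partners were higher (median 0.34), from Zwilch (0.75) to Mad1l1 (-0.12), and 14 of 15 condensin and cohesin genes (median 0.21), from Ncapd3 (0.59) to Ncaph (-0.0047). DREAM and MuvB regulators (9 of 14, from E2f8 at 0.74 to Lin9 at -0.38), anaphase-promoting complex genes (12 of 17, from Anapc11 at 0.44 to Anapc4 at -0.05) and G2 checkpoint genes (5 of 6, from Chek1 at 0.48 to Ccng2 at -0.09) had no call. The HSC class had no call in any of the 7 lists. Its S phase genes were higher in 22 of 32, from Clspn (0.31) to Ccne1 (-0.38), and the condensin subunit gene Ncaph had the largest difference of its list (0.61 ± 0.15, adjusted p 0.228 in edgeR's test).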

How the data were processed

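Raw UMI counts per gene and barcode were used as deposited by the authors, one matrix for each of 2 libraries, with 4 hashtag rows each. Cell Ranger and the build GRCm38 are listed, without a stated role, in the submitters' processing notes. Barcodes were kept with at least 500 genes, at least 1000 UMIs, at most 10% mitochondrial UMIs and exactly 1 hashtag of at least 200 counts, and doublets called by Scrublet were left out. That caller marked 1.20% and 0.803% of barcodes, and 17.6% and 18.0% of the barcodes with several hashtags. Cells were clustered without cell-cycle genes (2000 variable genes, 30 components, 15 neighbours, resolution 1; scanpy 1.11.5), and 17 marker lists named the clusters. 5 other clusterings had been seen before this one was chosen, by the stability of its clusters and names and before member levels were looked at. Marker lists for macrophages, endothelial or stromal cells and epithelial tumour cells summed to 76.9, 21.5 and 16.1 CPM over all cells.

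UMIs were summed per hashtag replicate and class (at least 10 cells in each replicate). Surgery was compared with sham by edgeR 4.0.16 (quasi-likelihood test, batch as a term, Benjamini-Hochberg adjustment over all genes, threshold 0.05), with DESeq2 1.42.0 as an alternative. Tests were checked on simulated data. The members and gene lists were chosen with earlier results of these data known. For the HSC class and lymphoid-primed progenitors the text names Mki67, Top2a, Cdk1, Ccnb1, Plk1 and Aurkb, and the 3 highest and 3 lowest members. In the other surgery comparisons only some members are named. Any member called is named. Other settings for thinning, hashtags, doublets, clustering and filters were tried, and each replicate was left out in turn. Fewer cells of a type and less RNA per cell cannot be told apart in sums over all cells. Promoter sequences are from RefSeq.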

Additional observations from a re-analysis of the deposited data

Results flagged for a closer look

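Within groups of 4 replicates, 1 value lay far from the other 3 in 3 of the 70 groups examined, and chance gives about 1 in 20. The cycling share of the Ltf- and Ngp-led neutrophil class was 71.4% in the second sham replicate of batch 2 and between 82.1% and 83.6% in the other sham replicates. Ccnb1 in all cells was 45.4 CPM in the first surgery replicate of batch 2 and between 55.3 and 57.3 CPM in the other surgery replicates. Mki67 in the HSC class was 125 CPM in the first sham replicate of batch 1, against 143 to 145 CPM in the other sham replicates.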

How the results depend on the processing

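No member was called for surgery under most alternatives. The exceptions were these. In lymphoid-primed progenitors 1 member, Ccnb2, was called with a hashtag minimum of 50, where 24 genes of any kind were called higher and 18 lower. At resolution 2 it was called again, with 29 genes higher and 20 lower. With a replicate left out, between 0 and 3 members were called there. Without a low-count filter, 1 member (Ccna2) was called in T, NK or innate lymphoid cells, with 2 genes of any kind higher and 4 lower. That setting also called 1 (Ube2c) in the batch interaction of plasmacytoid-like progenitors, where the count over all genes is not given. The per-cell gate gave HSC log2 differences of -0.24 for Mki67, -0.10 for Top2a, -0.15 for Cdk1, -0.45 for Ccnb1 and -0.16 for Aurkb. Other reversals in the HSC class were -0.0024 for Mki67 and 0.0658 for Plk1 with doublets kept, -0.0877 (Euclidean distance, no variable-gene minimum) and -0.0059 (thinned sums) for Top2a, and -0.0087 (hashtag minimum 500) and -0.01 (no variable-gene minimum) for Ccnb1. Plk1 was 0.30 with Euclidean distance, 0.20 with that and a minimum of 10 cells, 0.24 without a variable-gene minimum, 0.0949 with a hashtag minimum of 50 and 0.0958 at resolution 2. In lymphoid-primed progenitors Mki67 was -0.12 without that minimum and -0.0073 in thinned sums, Top2a was -0.0392 in thinned sums and Cdk1 was -0.0022 with doublets kept. With a replicate left out, log2 differences in the HSC class ran from -0.0172 to 0.13 for Top2a, -0.041 to 0.11 for Ccnb1 (also -0.0158 and -0.0312) and -0.18 to 0.0274 for Plk1 (also 0.022). In lymphoid-primed progenitors they ran from -0.15 to 0.31 for Mki67 (also -0.0252 and -0.0241) and 0.03 to 0.47 for Top2a.

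Class counts moved with the grouping of cells; the cause was not tested. The number of members above all cells moved in 54 of 159 alternatives: to 0, 1 or 17 in the HSC class, to 1, 9, 10, 11, 13, 15 or 17 in basophil-mast, 27 or 38 in dendritic, 0, 1, 2 or 6 in eosinophil and 0, 3 or 8 in lymphoid-primed progenitors. It moved to 1, 3 or 17 in mature B cells, 18 in the Ltf- and Ngp-led class, 10, 11 or 13 in megakaryocyte, 25 or 29 in monocyte, 1 or 4 in neutrophil-granulocyte and 2 in plasmacytoid-like progenitors, and 1 in the cluster led by Zg16 and Gm15915. The place by cycling share moved in 54 of 160 alternatives: to 4, 6, 8 or 9 for the HSC class, 9 for T, NK or innate lymphoid cells, 6 or 7 for basophil-mast, 2 or 8 for dendritic and 2 for erythroid progenitors, 8 or 10 for mature B cells, 1, 3 or 4 for the Ltf- and Ngp-led class, 5 or 7 for megakaryocyte and 2, 4 or 5 for monocyte progenitors, and 3, 4 or 7 for pro-B and pre-B cells. No place moved when a replicate was left out. The clusterings with Euclidean distance, other variable-gene minima and unit-variance scaling were added after the data were seen. A class name could stand for other cells under another grouping. Of the 959 cells of the Ltf- and Ngp-led class, 835 were in the class named by mature neutrophil markers with Euclidean distance. In the other clusterings and the per-cell gate only 40 to 82 were, so the values given for that class there describe largely other cells.

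The surgery minus sham cycling share, in points, moved without thinning to 3.47 in all cells, 4.75 in megakaryocyte, 0.542 in monocyte and -0.787 in plasmacytoid-like progenitors. With the per-cell gate it was -1.84 in erythroid, -5.25 in megakaryocyte and -8.38 in plasmacytoid-like progenitors. With Euclidean distance it was -1.50 (no minimum) or -1.84 (10 cells) in erythroid, -5.25 in megakaryocyte (10 cells) and 0.944 or 0.967 in plasmacytoid-like progenitors. It was 5.25 in T, NK or innate lymphoid cells with at least 2 members. With doublets kept it was -9.37 in the class named by mature neutrophil markers (71 cells, of which 40 were Ltf- and Ngp-led). In erythroid progenitors it was also 2.04 with at least 5 members, 2.34 at 1000 UMIs, -2.33 with a hashtag minimum of 500 and -2.07 with cell-cycle genes.

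Replicate numbers did not pair the samples (correlation of deviations 0.0033 and 4e-04). A replicate block called 78 genes over the 17 comparisons against 102 without it, DESeq2 called 81 and a fit without batch 32, with 0 members in each.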
